A study of Arabidopsis thaliana with 18 samples.

Results

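A set of 113 probe sets, out of 22746 on the array, marked transcripts that stood lower in Arabidopsis thaliana leaves under mannitol. Their group means in roots of the same treatment hardly moved. The probe sets were chosen on group means of log2 expression values. A probe set was taken when its mean was lower by at least 0.9 in osmotic than in mock leaves (a difference of -0.9 or less), when its osmotic minus mock difference in roots lay between -0.3 and 0.3, and when its mock mean was at least 6 in both organs. A log2 difference of -1 is a halving of the linear signal. The leaf fall and the small root difference were therefore fixed by the choice, and both are described here without a test. The array annotation paired 60 of the 113 with a single gene, for 59 different genes, and the other 53 carried no gene name and are given by their probe set.

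Wild-type plants of accession Columbia-0 were grown in hydroponic MGRL medium in a cycle of 12 h light and 12 h dark, and leaves and roots were profiled on 18 Affymetrix ATH1 arrays in 6 groups of 3 biological replicates. No group carried a mutation or a transgene. Mock plants and osmotic plants, which had 0.3 M mannitol in the medium for 3 h in the light, carried the label of day 10. The plants labelled day 11 were read as those moved back to basal medium for 1 day after mannitol, and differences from them also carry 1 day of age and that transfer. The protocol puts the age of the plants at 30 days, which the day labels do not match, and the sources used here do not give the hour at which mock plants were sampled. Each array measured a whole organ, in which fewer cells of a type and less RNA per cell cannot be told apart.

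Ribosomal proteins and the factors that assemble ribosomes formed the largest of the role classes into which the named members were sorted. Ribosomes are built in the nucleolus, where small nucleolar ribonucleoproteins, RNA helicases and GTPases modify, cut and fold the precursor of ribosomal RNA while ribosomal proteins join it. In plants each cytosolic ribosomal protein is encoded by a small family of closely related genes, and making ribosomes is among the main costs of growth. Other members act in the pectin and hemicellulose of the wall that surrounds growing cells, or in the chloroplast.

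Arrays of a group correlated at 0.9867 to 0.9947 across probe sets, and array medians lay between 6.549 and 6.686. Of the photosynthetic markers, 3 of 7 had a probe set named by a single gene, and they stood at 12.44 to 13.46 in mock leaves and at 3.95 to 6.40 in mock roots. Of the root markers, 4 of 8 were measured, and they stood at 3.45 to 4.91 in mock leaves and at 8.24 to 12.55 in mock roots, as the organ labels state. Of the markers of touch and handling 2 of 5 were measured, the calmodulin-like genes CML38 and CML37, and both were higher in osmotic than in mock plants with a median of 1.13 in leaves and 2.36 in roots. In mock leaves they stood at 7.68 and 6.24, in osmotic leaves at 8.69 and 7.48 and in day 11 leaves at 9.40 and 7.18. Osmotic leaves were lower than mock leaves in the photosynthetic marker PRK, at -0.47 (limma adjusted p = 0.044), 1 of 3 measured, and in the guard cell marker FAMA, at -0.65 (adjusted p = 0.023), 1 of 1 measured. Of the markers of dividing cells, 2 of 5 were measured, the Aurora kinases AUR1 and AUR2, and neither passed the test between osmotic and mock leaves, at 0.10 and 0.27. Both were lower in day 11 than in osmotic leaves, at -0.56 (adjusted p = 0.033) and -0.99 (adjusted p = 0.00048), and AUR2 was also lower than in mock leaves, at -0.72 (adjusted p = 0.042). The part of these markers in the results below was not tested.

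The osmotic leaves were not equally affected. Relative to the mock leaf mean, the median of the 113 probe sets was -0.81 in osmotic leaf replicate 1, -1.24 in replicate 2 and -1.15 in replicate 3, whereas the median of all probe sets stayed between -0.02 and 0.01. The median SD of a member among the osmotic leaves was 0.305, against 0.174 for all probe sets, and among mock leaves it was 0.167. Of the arrays of the rule, osmotic leaf replicate 1 moved the number chosen most. The rule chose 182 probe sets without it, 109 of them members, and 95 and 101 without replicates 2 and 3. Without mock leaf replicate 1 it chose 149, of which 111 were members. Without osmotic root replicates 1 and 2 it chose 96 and 127.

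**Figure D1:**
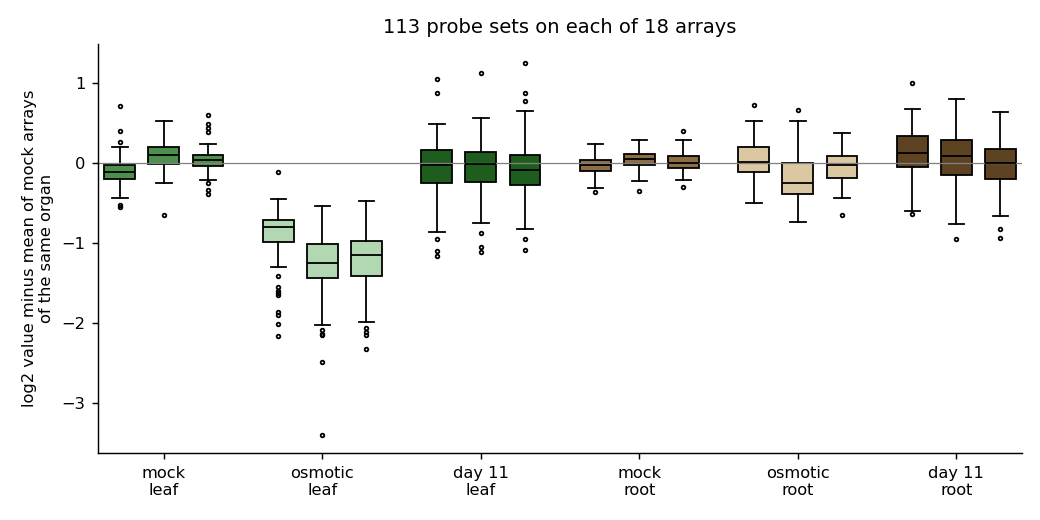
Box plots of the 113 members on each of the 18 arrays, as the log2 value minus the mean of the mock arrays of the same organ (y axis), with the median as the line, the quartiles as the box, whiskers to 1.5 times the interquartile range and single probe sets beyond them as points. The 3 osmotic leaf arrays have medians of -0.81, -1.24 and -1.15, and the day 11 leaf arrays lie at -0.03, -0.02 and -0.09.

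When the rule was applied to the arrays of 2 replicate numbers and read in the arrays held out, the leaf difference remained below 0 for nearly every probe set chosen. With number 1 held out, 177 were chosen, 176 were below 0 in the arrays held out, and their median there was -0.56. Only 80 of these 177 were members. With number 2 held out, 90 of 95 were below 0 with a median of -1.15, and with number 3 held out, 91 of 92 with a median of -1.01. Of the 95 and the 92, 62 and 67 were members. The median leaf difference of all probe sets was -0.01, -0.05 and 0.01 with numbers 1, 2 and 3 held out. At the limits of the rule itself fewer carried over. In the same order, 26 of 177, 71 of 95 and 55 of 92 reached -0.9 in the leaf arrays held out. Within 0.3 in the root arrays held out stayed 108 of 177, 33 of 95 and 68 of 92. The median root differences there were 0.10, -0.33 and -0.06.

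Among all members the leaf difference ran from -2.47 to -0.90 with a median of -1.04, so that the osmotic level was 18.1% to 53.5% of the mock level on the linear scale, with a median of 48.6%. In roots the same difference ran from -0.30 to 0.27 with a median of -0.09. The root arrays were not alike. Relative to the mock root mean, the median of the members was 0.01, -0.25 and -0.04 in osmotic root replicates 1, 2 and 3. The median of all probe sets was -0.03, 0.01 and -0.03 there. The osmotic and mock leaf arrays did not overlap for 112 members, the exception being SAPX. Such separation was seen for 33.2% of all probe sets, but since the rule used these arrays, nothing is read from it. The values just inside the leaf limit were -0.908 for 257571_at, -0.907 for 261979_at and -0.903 for 255549_at. Just outside it lay AT1G44000 and 250371_at at -0.898 and AT3G25940 at -0.894.

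**Figure D2:**
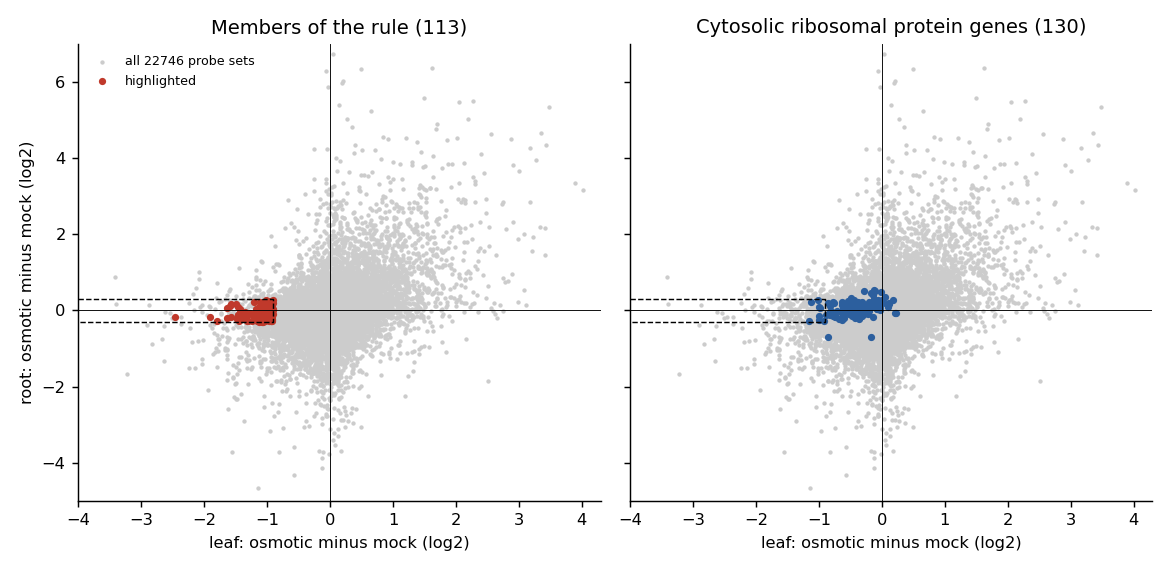
Osmotic minus mock difference in leaves (x axis, log2) against the same difference in roots (y axis, log2) for all 22746 probe sets in grey, with the 113 members in red on the left and 130 genes of cytosolic ribosomal proteins in blue on the right. The dashed lines mark the limits of the rule, and the ribosomal protein genes spread from -1.16 to 0.23 in leaves while 108 of them lie within 0.3 in roots.

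The lowest leaf difference belonged to the unnamed probe set 246919_at, chosen here after its values were seen. Its mock leaf arrays read 10.66, 10.90 and 10.80, its osmotic leaf arrays 8.63, 7.39 and 8.93, and its day 11 leaf arrays 10.37, 10.48 and 11.02. Osmotic replicate 2 lay lowest, and all 3 osmotic arrays were below the rest. Among named genes CSLA03 (AT1G23480), of the cellulose synthase-like A family that makes the mannan backbone of hemicellulose, had the lowest value at -1.80. Next came AT2G41250 at -1.59 and AT2G47440 at -1.58. AT5G54130, of a calcium-binding endonuclease and phosphatase family, had 2 probe sets, at -1.57 and -1.32.

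Of the cytosolic ribosomal proteins, 8 genes were members, among them RPS27a (AT1G23410, fused to ubiquitin) of the small subunit, and RPL9 (AT4G10450), RPL12 (AT5G60670), RPL19 (AT3G16780), RPL27 (AT2G32220) and RPL35a (AT1G07070) of the large subunit. Their leaf differences were close together, between -1.16 and -0.92.

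RPS27a (AT1G23410) read 6.41, 7.16 and 6.92 in mock leaves, 5.74, 5.79 and 5.61 in osmotic leaves and 6.90, 7.09 and 6.57 in day 11 leaves. In roots it read 8.32, 8.81 and 8.80, then 8.95, 8.62 and 9.01, then 9.63, 9.43 and 9.23 in the same order of groups. Every root array of this gene lay above every leaf array. RPL12 (AT5G60670) read 11.07, 11.15 and 11.29 in mock, 10.47, 10.08 and 9.98 in osmotic and 11.09, 11.15 and 11.08 in day 11 leaves. The mock and day 11 arrays of this gene overlapped, and the osmotic arrays lay below both. RPL9 (AT4G10450) was at 10.07, 10.50 and 10.25 in mock, 9.51, 9.30 and 8.97 in osmotic and 10.40, 10.29 and 10.11 in day 11 leaves. The pattern was that of the other genes of this class, with osmotic replicate 3 the lowest array for each of RPS27a, RPL12 and RPL9.

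The 8 members were the low end of a fall across the ribosomal protein families. Of 225 loci listed for cytosolic ribosomal proteins, 130 had a probe set of their own. The list was written after the members were seen, and its counts are a description. In osmotic leaves 80 of the 130 were lower than in mock leaves by limma's test (adjusted p under 0.05) and 0 higher (95 lower and 0 higher at an unadjusted p under 0.05, by which 18% of all probe sets were lower), with a median difference of -0.42, where 12% of all probe sets were lower by the adjusted test and the median of all was -0.00. The 8 members are among the 80, by choice. Without them 72 of 122 were lower, with a median of -0.39. In osmotic roots 6 of the 130 were higher and 2 lower, with a median of 0.08, where 24.3% of all probe sets changed. All 8 ribosomal protein genes whose leaf difference reached -0.9 also met the limit in roots.

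Within a family the copies differed in the size of the leaf difference. RPL19 (AT3G16780) was at -1.0 and its copy AT4G02230 at -0.22. RPL35a (AT1G07070) was at -0.92 and AT1G74270 at -0.26. RPL12 (AT5G60670) was at -0.99 and its copies AT2G37190 and AT3G53430 at -0.48 and -0.39. RPL27 (AT2G32220) was at -1.0, with AT3G22230 at -0.58 and AT4G15000 at -0.42. All 6 measured copies were below 0 and none reached -0.9, and the difference between copies was not tested, since the rule chose the lower one. Cross-hybridisation between copies was not tested either.

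**Figure D3:**
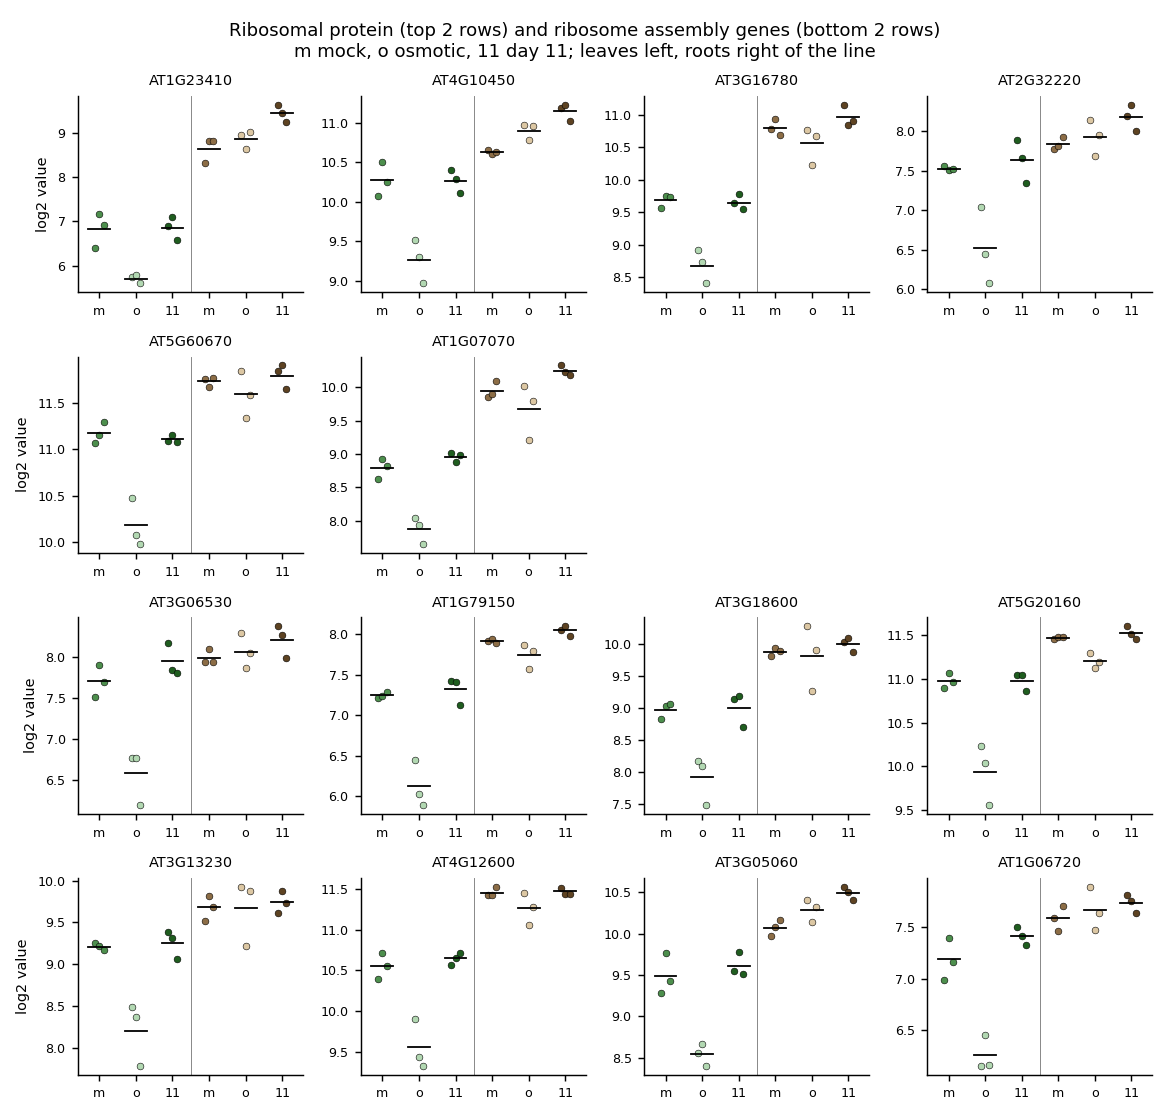
Log2 values (y axis, a scale of its own in each panel) of 6 ribosomal protein members in the upper rows and the 8 ribosome assembly members in the lower rows, with 1 point for each array and a line at each group mean. In every panel the 3 osmotic leaf arrays lie below the mock and day 11 leaf arrays, while the root groups lie closer together.

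Ribosome assembly gave 8 further members, with leaf differences of -1.13 to -0.93. They were the HEATR1/UTP10 homologue AT3G06530 of the small subunit processome, the NOC3 homologue AT1G79150 of the nucleolar complex that carries large subunit precursors, the DEAD-box helicase AT3G18600, the SNU13 homologues AT5G20160 and AT4G12600, which bind box C/D small nucleolar RNA, the PNO1 homologue AT3G13230, the NOP58 homologue AT3G05060 of box C/D ribonucleoproteins and the BMS1 homologue AT1G06720, a GTPase. These roles are known from yeast. AT3G06530 read 7.51, 7.91 and 7.70 in mock, 6.77, 6.77 and 6.19 in osmotic and 8.18, 7.84 and 7.81 in day 11 leaves. Its root arrays ran from 7.87 to 8.38 over the 9 arrays, with osmotic and mock roots overlapping. AT3G05060 read 9.28, 9.76 and 9.43 in mock, 8.55, 8.67 and 8.40 in osmotic and 9.55, 9.78 and 9.51 in day 11 leaves. Osmotic leaves were again the group that stood apart.

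The other measured SNU13 gene, AT4G22380, was at -0.53 and no member, whereas AT5G20160 and AT4G12600 were at -1.04 and -1.0. Of a list of 20 genes of ribosome biogenesis and RNA polymerase I, 6 were measured and 1, AT3G05060, was a member. All 6 were lower in osmotic leaves by limma's test, as were 12% of all probe sets, with a median of -0.67, but AT3G05060 was lower by choice. Without it 5 of 5 were lower, with a median of -0.59. In osmotic roots 0 of the 6 passed limma's test, the median was 0.13, and 1 was higher at an unadjusted p under 0.05, as were 15.6% of all probe sets. The RNA polymerase I subunits NRPA1 and NRPA2, which transcribe ribosomal RNA genes, were at -0.76 and -0.59 in leaves.

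Of the 6 members of the cell wall class, CSLA03 read 6.71, 7.19 and 7.53 in mock leaves, 5.14, 5.30 and 5.60 in osmotic leaves and 6.95, 7.59 and 8.02 in day 11 leaves. Osmotic leaves did not overlap either group. The pectate lyase AT1G67750, whose family cuts demethylated pectin, read 8.43, 8.65 and 8.65 in mock, 7.77, 6.09 and 7.52 in osmotic and 7.41, 8.80 and 8.21 in day 11 leaves. Its day 11 replicate 1 lay within the osmotic range, and osmotic replicate 2 far below the other arrays. RALFL24 (AT3G23805), of the RALF family of secreted peptides that act on growth, read 7.45, 7.34 and 7.57, then 6.45, 5.70 and 5.90, then 7.04, 7.24 and 7.07 in mock, osmotic and day 11 leaves. All its day 11 arrays lay below all mock arrays and above all osmotic arrays. SKU5 (AT4G12420), a membrane-anchored protein of directional root growth, had a leaf difference of -1.12. The polygalacturonase AT3G62110 and the pectin acetylesterase AT3G05910 were at -1.0 and -0.98. Of 14 listed expansins and enzymes of xyloglucan and cellulose, 4 were measured and none was a member. EXPA8, an expansin that loosens walls, was lower in osmotic than in mock leaves, at -3.42 (limma adjusted p = 3.6e-06), and higher by 3.76 in day 11 than in osmotic leaves. Its mock root mean of 4.71 lay below the limit of 6. Its osmotic minus mock difference in roots, 0.88 (limma adjusted p = 0.078), was also outside the limit of 0.3. The other 3 did not pass the test between osmotic and mock leaves, with EXPA4 at 0.13, EXPA15 at -0.24 and XTH20 at -0.06.

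The chloroplast class held 5 members. AT2G21860, related to violaxanthin de-epoxidase, read 9.33, 9.42 and 9.46 in mock, 8.88, 8.08 and 8.21 in osmotic and 9.43, 9.29 and 9.06 in day 11 leaves. SAPX (AT4G08390), the stromal ascorbate peroxidase that removes hydrogen peroxide, read 9.50, 9.39 and 9.66 in mock, 9.40, 8.10 and 7.90 in osmotic and 9.31, 8.85 and 8.74 in day 11 leaves. Its osmotic replicate 1 lay within the mock range, so its mean difference of -1.05 came from replicates 2 and 3. The thylakoid curvature protein CURT1D (AT4G38100), the DEAD-box helicase AT3G06980 and the FtsH family gene AT3G02450 were at -1.05, -1.0 and -0.97. Of 11 listed genes of photosynthesis and chlorophyll, 5 were measured and 0 were members. Of these 4 had mock root means below the limit of 6. Rubisco activase (RCA), at 6.40 there, missed the limits in both organs. Its osmotic minus mock difference was -0.26 in leaves and -1.03 in roots (limma adjusted p = 0.00032 in roots). In osmotic leaves 2 of the 5 were lower than in mock leaves by limma's test and 0 higher, where 12% of all probe sets were lower. They were SBPASE at -0.92 (adjusted p = 0.00029) and PRK at -0.47 (adjusted p = 0.044), both among those below the limit of 6.

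Members outside these classes included AT1G04040 of the acid phosphatase family, AT5G44680 of the DNA glycosylase family, AT5G48220, an indole-3-glycerol phosphate synthase of the tryptophan pathway, and AT2G35040, the bifunctional enzyme of the last steps of inosine monophosphate synthesis. AT1G04040 read 8.77, 8.55 and 8.61 in mock, 7.50, 6.99 and 7.05 in osmotic and 8.39, 8.77 and 9.12 in day 11 leaves, against 10.98 to 11.56 over all roots. Each root array of AT1G04040 thus lay above each leaf array. Expression of organelles was represented by the mitochondrial ribosomal protein S9 homologue AT3G49080 at -0.92, the ERA-like GTPase AT1G30960 at -1.01 and the pentatricopeptide repeat protein AT1G09900 at -0.91. The 59 genes lay on all chromosomes, 14 on chromosome 1, 7 on chromosome 2, 17 on chromosome 3, 10 on chromosome 4 and 11 on chromosome 5, and AT1G75180 and AT1G75190 were the only direct neighbours.

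At day 11 the leaf levels were back near those of mock leaves. The 113 probe sets had a median difference from mock leaves of -0.03, with 85 within 0.3 of the mock mean, 24 below and 4 above. The difference between day 11 and osmotic leaves ran from 0.50 to 2.31 with a median of 1.03, and 109 of 113 were higher by limma's test, against 9.13% of all probe sets. Because the osmotic arrays had chosen the members, that count is not independent of the choice. The 4 that missed the test were AT2G41250, AT4G35320, SAPX and AT3G18050, with values of 0.81, 0.63, 0.50 and 0.59. The largest rises among named members were those of CSLA03 by 2.17 ± 0.24 (SE), AT1G04040 by 1.58 ± 0.17, AT2G47440 by 1.55 ± 0.30 and AT3G06530 by 1.37 ± 0.17.

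Expressed as the share of the leaf difference (log2) that day 11 leaves had regained, the members ran from 42% to 155%, with a median of 97.1% and quartiles of 78.8% and 108%. This share was over 100% for 45 members and under 50% for the AT5G54130 probe set 248190_at and SAPX, at 42% and 47.4%. The 8 assembly members lay between 100% and 125% and the 8 ribosomal protein members between 93.7% and 118%. The cell wall class spanned 69.9% to 121% and the chloroplast class 47.4% to 98.7%. As ratios on the mock and osmotic arrays of the rule, these shares are a description.

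**Figure D4:**
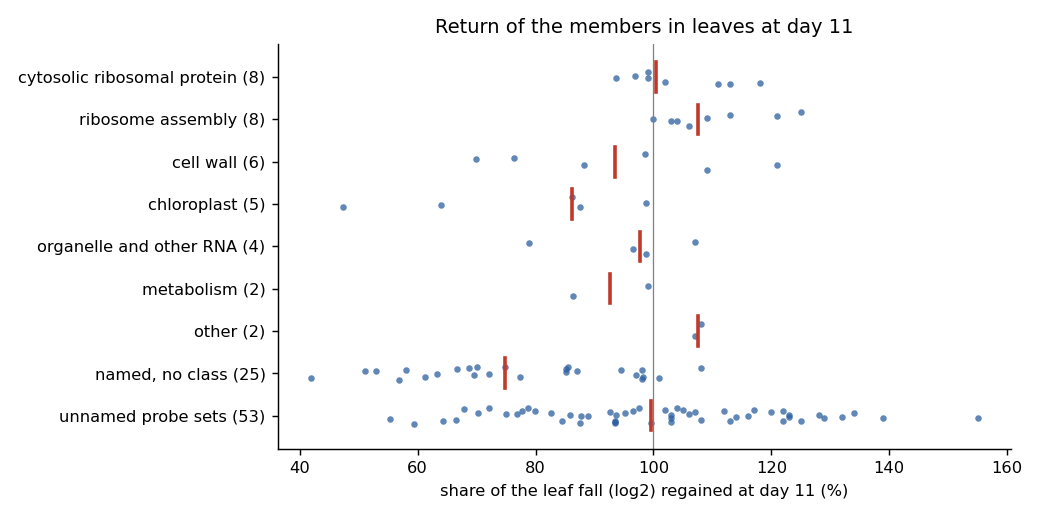
Share of the leaf difference regained at day 11 in percent (x axis; 100 is the mock level) for each member as a point, by role class (y axis, number of members in brackets), with the class median as a red bar. The medians are 101% for ribosomal proteins, 108% for ribosome assembly and 86.1% for the chloroplast class.

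Against mock leaves, 1 member was lower at day 11 by limma's test (0.369% of all probe sets were) and 0 were higher (0.721% of all). The mock leaf arrays had also chosen the members, for a high mock level against a low osmotic one, which favours lower values at day 11, so neither count is independent of the choice. The lower one was the AT5G54130 probe set 248190_at. It read 6.72, 6.52 and 6.73 in mock, 5.41, 5.37 and 5.22 in osmotic and 6.19, 5.60 and 5.87 in day 11 leaves. Day 11 lay between both other groups without overlap, at -0.77 ± 0.16 (SE, n = 3 and 3) from mock (limma adjusted p = 0.027). The call was lost without mock leaf replicates 1 or 3 and without day 11 leaf replicates 2 or 3, when the count was 0, and without day 11 leaf replicate 1 the count was 2. The other probe set of the gene, 248191_at, was at -0.52 ± 0.21 (adjusted p = 0.24). At an unadjusted p under 0.05, 12 members were lower and 0 higher, where 7.54% of all probe sets were lower and 7.05% higher.

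The members had been chosen for close osmotic and mock means in roots, and the same root arrays enter both comparisons with day 11 roots, so that the root counts are not independent of the choice either. Between osmotic and day 11 roots 9 of 113 passed limma's test, 8 higher and 1 lower, which is 7.96% where 19% of all probe sets changed. Against mock roots 6 passed at day 11, 5 higher and 1 lower, which is 5.31% where 7.65% of all changed. Since a small root difference was a condition of the choice, nothing is read from the lower shares of the members. RPS27a (AT1G23410) lay 0.57 ± 0.19 above osmotic (adjusted p = 0.042) and 0.79 ± 0.19 above mock roots (adjusted p = 0.017). Its 3 day 11 root arrays were above the 6 others.

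RPL9 (AT4G10450) read 10.66, 10.61 and 10.63 in mock, 10.97, 10.78 and 10.96 in osmotic and 11.19, 11.23 and 11.02 in day 11 roots, and was 0.51 ± 0.13 above mock roots at day 11 (adjusted p = 0.023). The NOP58 homologue AT3G05060 was 0.42 ± 0.12 above mock roots (adjusted p = 0.046). In both genes all day 11 root arrays lay above all mock root arrays. RPL35a (AT1G07070) and AT3G15680, of a zinc finger family, lay 0.58 ± 0.16 and 0.65 ± 0.18 above osmotic roots, each with an adjusted p of 0.014. AT1G75180 fell, to 7.21, 7.29 and 7.53 in day 11 roots from 7.73, 7.79 and 7.86 in osmotic and 7.81, 7.92 and 7.70 in mock roots. Its differences were -0.45 ± 0.13 (adjusted p = 0.016) and -0.46 ± 0.13 (adjusted p = 0.031), and its day 11 arrays lay below the others.

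The root counts rested on single arrays. The 9 became 2 without osmotic root replicate 2 or day 11 root replicates 1 or 2, 5 without osmotic root replicate 3, and 15, 14 and 16 without osmotic leaf replicates 1, 2 and 3, which enter the shared estimate of the spread. The 6 became 0 without mock root replicate 1, 1 without mock root replicate 2 or day 11 root replicates 1 or 2, and 3 without mock root replicate 3. Of the 130 ribosomal protein genes 15 were higher than mock in day 11 roots and 0 lower by limma's test, where 3.65% of all probe sets were higher and 4.01% lower, and the median of the 130 was 0.21. At an unadjusted p under 0.05, 46 were higher and 0 lower, where 10.6% of all probe sets were higher.

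The day 11 arrays were not used by the rule. The differences between day 11 roots and day 11 leaves are independent of it except for the limit on mock levels. Their limma test is not fully so, since the mock and osmotic arrays enter the shared estimate of the spread. By this test 47 members were higher in day 11 roots than in day 11 leaves (41.6%, against 33.8% of all probe sets) and 39 lower (34.5%, against 24.6% of all). Of the 11240 probe sets past the limit on mock levels, 43.2% were higher and 24.1% lower. The values ran from -3.92 to 2.57 with a median of 0.23, so the members had no shared organ preference.

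Role classes divided along that axis. All 8 ribosomal protein members were higher in roots by limma's test, with a median of 1.1, and 6 of the 8 assembly members, with a median of 0.63. Together 14 of these 16 were higher and 0 lower (15 and 0 at an unadjusted p under 0.05, by which 35.4% of all probe sets were higher and 26.6% lower), whereas of the other 97 members 33 were higher and 39 lower. The classes were drawn up after the members were seen, so this is a description and carries no test. The same held outside the members: of the 122 other ribosomal protein genes 104 were higher in day 11 roots and 2 lower by limma's test, with a median of 0.72. RPS27a (AT1G23410) was 2.57 ± 0.19 higher (adjusted p = 6.5e-10), AT1G04040 2.44 ± 0.17 (adjusted p = 3e-10), RPL19 (AT3G16780) 1.32 ± 0.14 (adjusted p = 1.9e-07) and RPL35a (AT1G07070) 1.29 ± 0.16 (adjusted p = 8.3e-07).

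Of the chloroplast class 3 of 5 were lower in day 11 roots and 0 higher, at the adjusted and the unadjusted threshold of 0.05. Of all probe sets 24.6% were lower and 33.8% higher at the adjusted threshold, and 26.6% and 35.4% at the unadjusted one. The 5 values ran from -3.19 to 0.54, and this count too is a description. AT2G21860 read 6.06, 6.26 and 5.89 in day 11 roots against 9.43, 9.29 and 9.06 in day 11 leaves, a difference of -3.19 ± 0.17 (adjusted p = 3.3e-12). The tryptophan pathway gene AT5G48220 was at -3.39 ± 0.18 (adjusted p = 4.5e-12), with 5.88, 5.69 and 6.12 in roots and 9.40, 9.20 and 9.25 in leaves. Roots and leaves were far apart for both. AT3G18050 was at -3.56 ± 0.21 (adjusted p = 2.2e-11) and the DNA glycosylase family gene AT5G44680 at -3.49 ± 0.25 (adjusted p = 3.3e-10). Root levels of these 4 genes lay close to the limit of 6 in the mock group, at 6.18, 6.13, 6.36 and 6.24.

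**Figure D5:**
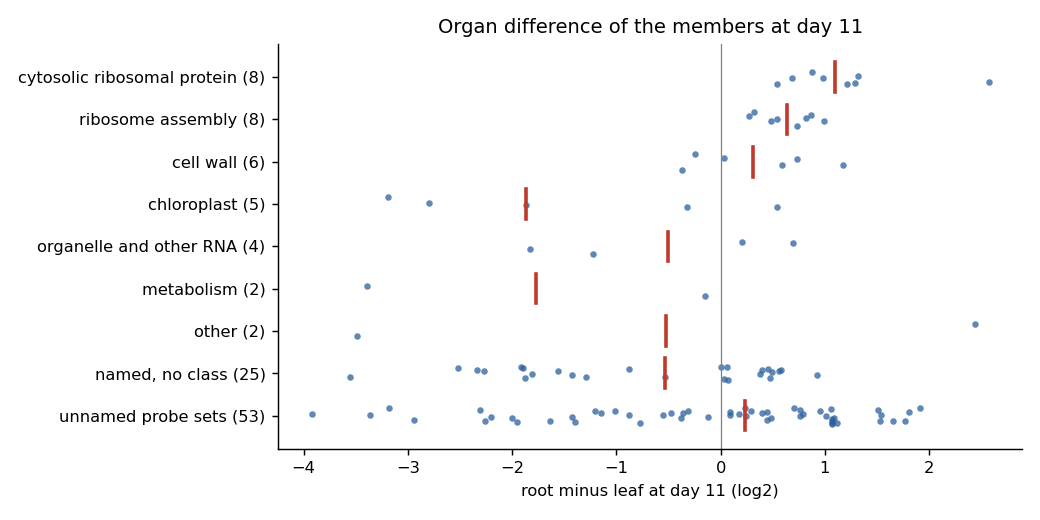
Root minus leaf difference at day 11 (x axis, log2) for each of the 113 members as a point, by role class (y axis, number of members in brackets), with the class median as a red bar. All ribosomal protein and ribosome assembly members lie above 0, while the values of all members run from -3.92 to 2.57.

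The step from osmotic to day 11 differed between the organs for 77 of 113 members, each with a lower step in roots (68.1%, against 6.09% of all probe sets), as tested by the interaction of organ and step in limma. The osmotic arrays of both organs had chosen the members for a leaf difference without a root difference. Neither that count nor the adjusted p-value below is therefore independent of the choice. The median difference between the steps was -0.89. AT1G04040 had the largest called value among named members at -1.68 ± 0.24 (adjusted p = 0.00016), with a step of 1.58 in leaves and -0.10 in roots. Of the ribosomal protein members 4 of 8 passed, and of the assembly members 7 of 8.

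Most leaf fallers of similar brightness were lower in roots as well. Of 331 probe sets with a leaf difference of -0.9 or less and mock means of at least 6, 113 were the members, 196 were lower in roots by more than 0.3 and 22 higher. The median leaf difference was -1.04 in the members, -1.13 in the 196 and -1.11 in the 22. At day 11 the leaf value was higher than under mannitol by limma's test for 96.5% of the members, 84.7% of the 196 and 90.9% of the 22. Of all probe sets 9.13% were, and 13.5% of those past the limit on mock levels. In day 11 roots, compared with day 11 leaves, 41.6%, 37.8% and 18.2% were higher by limma's test and 34.5%, 32.1% and 63.6% lower, in the same order. Of all probe sets 33.8% were higher and 24.6% lower. The groups were set by the osmotic and mock arrays, and the differences between them were not tested. The reverse pattern, a root difference of -0.9 or less with a leaf difference within 0.3 and the same limit on mock means, was met by 156 probe sets.

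The genes outside the members whose 6 group means were most like the median profile of the members, among 6861 compared by Pearson correlation, were AT5G54910 (r = 0.992), AT1G14810 (r = 0.99), AT1G62150 (r = 0.99), AT3G56120 (r = 0.987) and AT3G19360 (r = 0.986). The correlations are over 6 means that share the arrays of the rule. Leaf differences of these 5 were smaller than the limit, at -0.69, -0.64, -0.58, -0.63 and -0.76.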

How the data were processed

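The authors deposited log2 expression values with 1 column for each of 18 arrays; how they summarised and normalised the arrays is not given in the sources used here, and base 2 was inferred from their range (2.38 to 13.9). The values were used as deposited and all columns were assigned to groups. Control probe sets (64) were left out. A mean for each of 6 groups was fitted over all arrays (limma 3.58.1 under R 4.3.3, eBayes with a mean-variance trend), Benjamini-Hochberg adjusted over 22746 probe sets, threshold 0.05, and tested on simulated data. The number of arrays limits the precision, and for a single value the smallest exact p with 3 against 3 is 0.1. Probe sets were named by the platform annotation where it gave a single gene, matched to the RefSeq gene table of TAIR10.1 (13436 probe sets). Coordinates are left out, since the array values name no build.

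The members and gene lists were chosen with earlier results of these data known. Named genes were the 20 named members with the largest leaf fall, up to 6 of each list, the 4 largest called rises and falls of each comparison without overlap between arrays, the probe sets beside the leaf limit, members with several probe sets and the 5 genes of most similar profile. Other genes, the role classes and the list of ribosomal proteins were added after values were seen. Alternatives were quantile normalisation, centring, no trend, array weights, the compared groups alone, a filter on dim probe sets, the replicate block, each array left out, and other limits of the rule. Some members named by the annotation are counted but not reported here.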

Additional observations from a re-analysis of the deposited data

Results flagged for a closer look

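The step from the osmotic to the day 11 state differed between roots and leaves, by the test of that difference in limma, for 77 of the 113 members, each with a lower step in roots. Over all probe sets, 6.09% had a lower step in roots by the same test. The osmotic arrays that chose the members, for a leaf difference without a root difference, enter this test. All 113 members had a value below 0. Neither the count nor the adjusted p-values below are independent of the choice, and nothing further is read from them. The largest named values were -1.68 ± 0.24 for AT1G04040 (adjusted p = 0.00016), -1.61 ± 0.44 for AT2G41250 (adjusted p = 0.021), -1.58 ± 0.34 for CSLA03 (adjusted p = 0.0049) and -1.56 ± 0.23 for AT5G06270 (adjusted p = 0.00025). AT1G04040 moved by 1.58 in leaves and -0.10 in roots, and AT5G06270 by 1.14 and -0.42. For AT2G41250 neither step passed on its own, with 0.81 in leaves (adjusted p = 0.084) and -0.80 in roots (adjusted p = 0.082).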

How the results depend on the processing

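The number of members, 113 in all, became 72 with a leaf limit of -1.0. With root limits of -0.2 and 0.2 it was 79, and with a mock limit of 7 it was 77. After quantile normalisation it was 95, of which 85 were members, and after centring 98, of which 83 were members. It became 177 without replicate 1 of the mock and osmotic groups, and ran from 92 to 182 when arrays were left out. The count of members lower in day 11 than in mock leaves (1) became 7 with array weights and 0 with the compared groups alone or with dim probe sets left out, and ran from 0 to 2 when single arrays were left out; the count of higher ones (0) became 1 with array weights. Members changed from osmotic to day 11 roots (9) became 25 with array weights and 14 with the compared groups alone, with a range of 2 to 16 when single arrays were left out. Those changed from mock to day 11 roots (6) became 14 and 16, with a range of 0 to 9. The cause was not tested. The other counts kept within 1.5 times their value: 93 to 110 for the leaf rise, 58 to 94 for the organ difference of the step, 37 to 41 lower and 41 to 51 higher in day 11 roots than leaves. Over all probe sets, array weights moved the calls between day 11 and mock leaves from 84 to 732 lower and from 164 to 783 higher, and between day 11 and mock roots from 1741 to 3423. The compared groups alone gave 932 in place of 2077 for the leaf rise, and 19 lower and 108 higher in day 11 than in mock leaves. Leaving out dim probe sets, with 11509 in place of 22746 tested, gave 3267 (28.4%) in place of 5604 (24.6%) lower in day 11 roots than leaves, and 1159 (10.1%) in place of 1741 (7.65%) changed between day 11 and mock roots. Single arrays moved these shares of all probe sets as well. The 2077 of the leaf rise (9.13%) became 1306 (5.74%) without osmotic leaf replicate 2. Of the calls between day 11 and mock leaves, the 84 lower became 29, 19, 36 and 53 without mock leaf replicates 1 and 3, day 11 leaf replicate 3 and day 11 root replicate 1, and the 164 higher became 90 and 73 without mock leaf replicates 1 and 3. The 1741 became 871, 966 and 1133 without mock root replicates 1, 2 and 3, and 1045 and 790 (3.47%) without day 11 root replicates 1 and 2. Of 2222 alternatives for 89 called values of named genes, 2087 kept the call, 135 lost it and 0 reversed.

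Taken over all groups, the replicate numbers gave little sign of pairing. Of 45 pairs of arrays with the same number from different groups, 10 had deviations that correlated above 0.1 (median 0.019, against -0.01 for different numbers). Same-number pairs of mock and day 11 leaves were at 0.346, 0.062 and 0.254. Those of osmotic and day 11 leaves were at 0.09, 0.019 and 0.333, and those of mock and osmotic leaves at -0.053, -0.289 and 0.119. Pairing within leaves alone was not tested. With the replicate block the counts were 108 for the leaf rise, 1 lower and 0 higher against mock leaves, 11 and 7 for the root comparisons, 80 for the step, and 39 lower and 47 higher in day 11 roots than leaves.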
